A study of Mus musculus with 12 samples.

Results

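The livers of ERKO mice were compared with those of wild type mice after treatment with oil, the vehicle of the study, so that the absence of oestrogen receptor alpha was the difference that the labels give. The comparison used 4 of the 12 arrays of the series, 2 of ERKO oil and 2 of wild type oil, chosen by genotype and treatment as labelled, with no measured value. All mice were ovariectomized females, labelled C57BL/6 and 3 months old, which recovered for 1 week and then received 0.1 mL of oil a day for 3 days. ERKO mice are labelled as lacking oestrogen receptor alpha, and the sources used here do not say how the gene was disrupted. Another 8 arrays were ERKO and wild type given 100 µg a day of PPT, which activates this receptor selectively, and MOER mice given PPT or oil. MOER mice have oestrogen receptor alpha at the membrane alone, per the labels. Values of these 8 arrays are set side by side with the oil comparison. All 12 arrays entered the filter and the shared estimate of spread behind the p-values. The RNA of 3 animals was pooled for each array. The labels say that the study was repeated a second time but not whether the replicates of a group used separate animals. The p-values therefore measure the spread between arrays of a group, pooled over the 12 arrays, and not that between animals.

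Oestrogen receptor alpha is a nuclear receptor that binds DNA directly or through other factors and also acts from the cell membrane, and hepatocytes express it. In rodents many liver genes differ between the sexes, largely because growth hormone is released in pulses in males and more steadily in females, and oestrogen acts on that release. Ovariectomy removes the main source of oestrogen, so both genotypes were measured with little ligand from the ovary.

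Whole liver RNA was read on the Affymetrix Mouse Gene 1.0 ST array as 1 intensity per probe set, a linear value of brightness. Of 28815 probe sets, 19119 passed a filter on dim values (over the 40th percentile on 2 or more arrays) and were tested on the scale log2(intensity + 16), and they stand for 13987 genes with 1 symbol. The median intensities were 79.5 and 80.6 on the ERKO oil arrays, against 78.8 and 79.96 on the wild type oil arrays. The ERKO oil arrays stood apart from the rest: they correlated at 0.981, against 0.994 to 0.996 for the other 5 pairs, and 162 probe sets differed over 2-fold between them, against 2 to 21 in the other pairs. ERKO replicate 2 was lower than replicate 1 among probe sets above the median brightness, by a median log2 difference of -0.19, and had 77 values of 0, against 18 in replicate 1. The 8 genes with the widest gap between the ERKO arrays, Thbd, Kdm5d, Tbc1d7, Ccdc184, Olfr798, Spred2, Dleu2 and Lce3c, were led by thrombomodulin, at 78.8 and 10.1 in ERKO and 71.4 and 69.9 in wild type. Results are therefore given with and without each ERKO array, and also with array weights. That fit gave both ERKO oil arrays a weight of 0.242, against 1.06 to 1.73 for the other groups. With 2 arrays a group both receive the same weight, so the weights reflect the gap within a pair and not which array departs. Xist gave 2538 and 2552 on the ERKO arrays, against 2619 and 2780.2 on the wild type arrays, and the Y-linked gene Eif2s3y gave 10.4 and 10.3 in ERKO, against 13.3 and 9.68 in wild type, so Xist was bright and Eif2s3y dim in all 4 arrays. Kdm5d, also Y-linked, gave 13 and 69.6 in ERKO, against 31.5 and 55.8 in wild type, dim on the replicate 1 arrays and just above the 40th percentile on both replicate 2 arrays. Of 6 hepatocyte markers 0 were called, and their summed intensity was 67748 and 52821 in ERKO, against 61946 and 62773 in wild type.

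**Figure D1:**
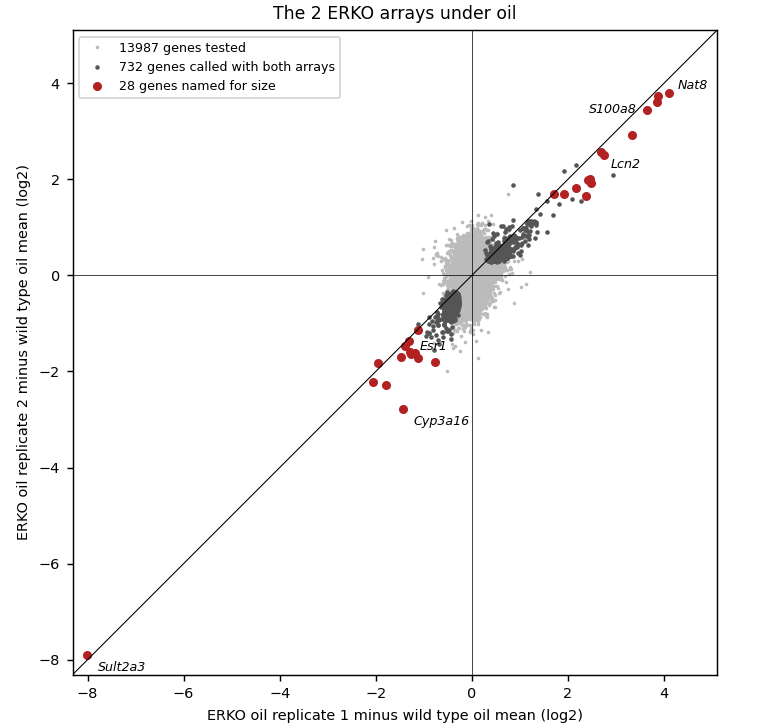
Each point is 1 gene. The horizontal axis gives ERKO oil replicate 1 and the vertical axis ERKO oil replicate 2, each minus the mean of the 2 wild type oil arrays (log2 scale), and the diagonal marks equal values. The 28 genes named for the size of their change (red) lie on the same side of 0 in both arrays, which the rule for naming them required. The cloud of the 13987 genes tested (grey, with the 732 called genes in dark grey) is taller than wide and reaches further below 0 in replicate 2.

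Esr1 (probe set 10367600), which encodes the receptor, checks the labels of ERKO against wild type. It gave 126 and 118 in ERKO livers, against 347 and 365 in wild type livers. Both ERKO arrays were below both wild type arrays, with a log2 difference of -1.43 ± 0.093 (limma, Benjamini-Hochberg adjusted p = 1.43e-05). The MOER oil arrays gave 126 and 128. ERKO minus MOER was -0.055 (limma, adjusted p = 0.816), so this probe set does not tell ERKO from MOER. The ERKO signal was not dim, since it lay above the 40th percentile of both arrays (54.1 and 57.8). Which part of the transcript the probe set reads was not tested. Of the 58 genes nearest to Esr1 in chromosomal order among those tested, 2 (Adgb and Adat2) were called, or 3.45%, against 5.23% of all genes tested. Of the 108 nearest, 2 were called higher and 5 lower (6.48%), Sult3a1 and Vnn1 among the lower, and of the 687 genes tested on chromosome 10, 53 were called (7.71%). Only 8 of the neighbours lie on one side of Esr1, and the part of position in these calls was not tested.

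By limma with Benjamini-Hochberg adjustment over all probe sets, 957 probe sets were called (5.01%), 428 of them higher in ERKO (2.24%) and 529 lower (2.77%). Of the 13987 genes, 328 were called higher (2.35%) and 404 lower (2.89%), and 53 (0.379%) and 24 (0.172%) of the genes tested rose and fell by at least 2-fold. Calls that held with both ERKO arrays and without either of them numbered 280 higher (2%) and 159 lower (1.14%). A fit without 1 ERKO array has 1 array in that group, so the wide gap between the ERKO arrays no longer enters its spread. Calls that held in this way are therefore not tested against that gap. Without ERKO replicate 1 far more of the 19119 probe sets were called than with both arrays, above all as lower. List counts below from that fit stand against its own calls over all probe sets, given in the last section, and not against the shares above. A larger list count there is therefore not by itself a result about the list. With array weights 88 genes were called higher and 59 lower, and all 147 were among the 732 calls of the equally weighted fit. When only the 4 arrays of the comparison entered the fit, 42 were called higher and 14 lower. In that fit 0 genes were called in the lists of growth hormone signalling, fatty acid oxidation, cholesterol, triglyceride or lipoprotein genes. The same held for the coagulation, drug metabolism, gluconeogenesis, steroid-converting, oxidative phosphorylation, endothelial, periportal and pericentral lists. Genes whose groups did not overlap were far more numerous, 2287 higher (16.4%) and 4220 lower (30.2%). Genes below were named by a rule given with the processing, and the median log2 difference of all genes was -0.05, against which each list median stands. Differences are ERKO minus wild type on the log2 scale, with the standard error of the fit after ±, and values per array are intensities of replicates 1 and 2.

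Of the 14 largest rises, 6 were in genes that were dim in wild type livers (both arrays under their own 40th percentile), for which a fold is a lower bound. Such genes were ranked by that bound, so that Ngp, below, is not among the 14. The rises included P450 enzymes of the male pattern, secreted acute phase proteins, transcripts of neutrophils and plasma cells, and genes of the clock and of stress. The largest fall, by a wide margin, was in a sulfotransferase of steroids and bile acids. Other falls were in P450 and sulfotransferase genes of the female pattern, in Esr1 itself and in single genes of lipid and thyroid hormone metabolism.

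**Figure D2:**
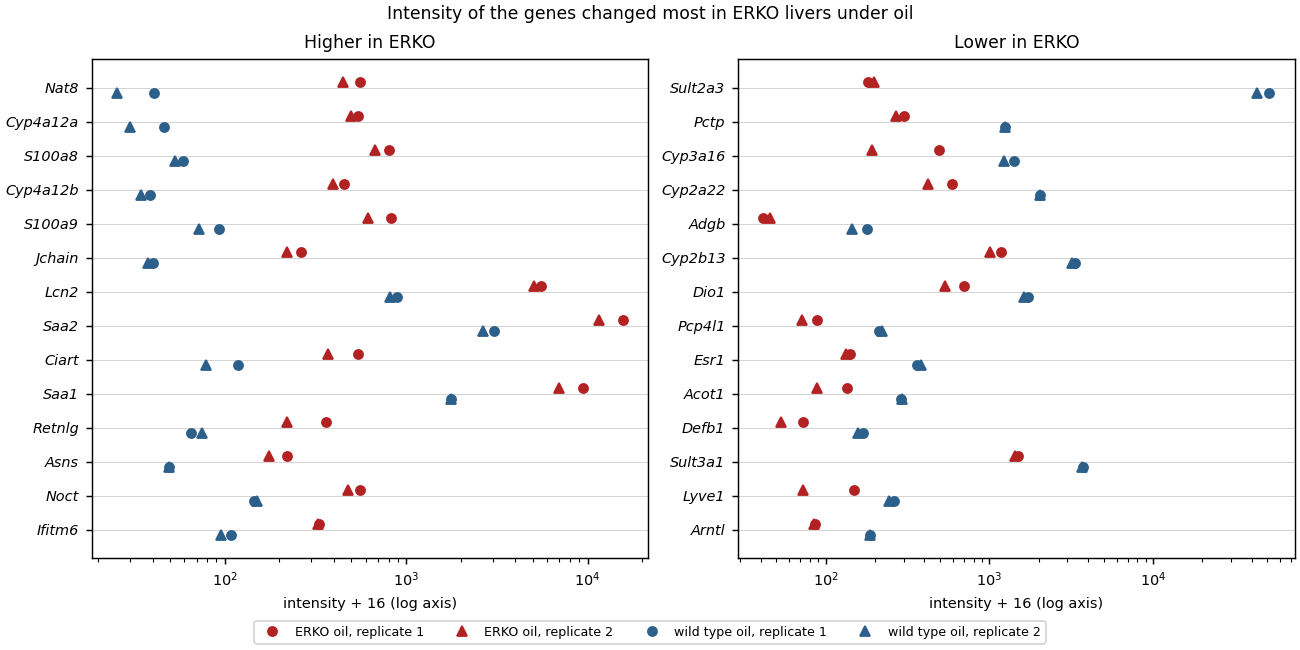
Intensity plus 16 on a log axis for the 14 genes with the largest rises (left) and the 14 with the largest falls (right) in ERKO livers, genes dim in a group being ranked by their lower bound, for each of the 2 ERKO (red) and 2 wild type (blue) oil arrays. In every gene shown both ERKO arrays lie on the same side of both wild type arrays, which the rule for naming these genes required. Sult2a3 spans the widest gap, 166 and 180.3 in ERKO against 51281 and 43095 in wild type.

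Sulfotransferases attach sulfate to steroids, bile acids and other small molecules and make them more soluble. Sult2a3 (probe set 10560117) gave 166 and 180.3 in ERKO livers, against 51281 and 43095 in wild type livers. It was the brightest gene tested on wild type replicate 1 and stayed above the array median in ERKO, with a log2 difference of -7.96 ± 0.17 (adjusted p = 1.55e-09), and the lowest and highest values over all alternatives were -8.17 and -7.63. A probe set shared by Sult2a1, Sult2a2, Sult2a4 and Sult2a5 gave 15.3 and 8.5 in ERKO, against 4706 and 4824 in wild type. Both ERKO values were in the dim range, so the fall was at least 85.2-fold (adjusted p = 6.16e-10). The Sult2a genes are close copies, and the probe sets may read more than the gene they are assigned to. Sult3a1, a sulfotransferase found at higher level in female mouse liver, gave 1478 and 1425 in ERKO and 3740.0 and 3646 in wild type, a difference of -1.34 ± 0.13 (adjusted p = 2.28e-04). Sult1e1, the oestrogen sulfotransferase, gave 68.8 and 66.4 in ERKO and 119 and 130.2 in wild type, -0.75 ± 0.12 (adjusted p = 0.00735), and lost its call with array weights (adjusted p = 0.149). In all 3 of these genes and in the shared probe set, both ERKO arrays were below both wild type arrays.

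Male-biased liver genes are those that the pulsatile growth hormone pattern of males maintains, and female-biased genes those of the continuous female pattern. Of 28 male-biased genes tested, 10 rose and 1 fell in ERKO livers, with a list median of 0.12. With the 4 arrays of the comparison alone 6 rose and 0 fell. The counts were 10 higher and 2 lower without ERKO replicate 1, 11 and 1 without ERKO replicate 2, 8 and 0 without either wild type array, and 7 and 1 with array weights. Cyp4a12a, an arachidonic acid hydroxylase of male mouse liver and kidney, gave 525 and 479.9 in ERKO, against 30.2 and 13.9 in wild type. Its near copy Cyp4a12b gave 439 and 381 in ERKO and 22.9 and 18.5 in wild type. Both were in the dim range in wild type and clearly above it in ERKO, so they rose at least 9.33-fold (adjusted p = 1.10e-06) and at least 7.61-fold (adjusted p = 1.06e-07), though the 2 genes are too alike for their probe sets to be taken as independent. Nat8, an acetyltransferase gene outside the list, gave 538 and 435 in ERKO, against 25 and 9.44 in wild type, at least 9.03-fold higher (adjusted p = 3.75e-05), and its relative Nat8f5 rose by 1.12.

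Further male-biased genes rose by smaller amounts. Cyp2d9, a male-pattern steroid hydroxylase, gave 914 and 823 in ERKO, against 343 and 319 in wild type (1.35 ± 0.092, adjusted p = 2.11e-05). Cyp7b1, an oxysterol hydroxylase, gave 933 and 804 in ERKO and 412 and 367 in wild type (1.12 ± 0.098, adjusted p = 1.27e-04). In both genes both ERKO arrays lay well above both wild type arrays. C8a, a terminal complement component, gave 5677 and 5236 in ERKO and 2642 and 2634 in wild type (1.04 ± 0.083, adjusted p = 6.56e-05), and the complement genes C6 and C8b rose by 1.06 and 0.49. Susd4, a complement regulator dim in wild type, rose at least 1.74-fold, and the carboxylesterase Ces2e rose by 0.53. Other well known male-pattern genes did not pass the test: Hsd3b5, a steroid reductase of male liver, differed by -0.02, the transporter Slco1a1 by 0.14 and the elongase Elovl3 by 0.33. Cyp2f2, a P450 also of airway cells, was the 1 list member that fell, 3676 and 2989 in ERKO against 4988 and 5163 in wild type (-0.61 ± 0.1, adjusted p = 0.00829).

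Of 31 female-biased genes tested, 6 fell and 2 rose, with a list median of -0.20. With the 4 arrays of the comparison alone 2 fell and 0 rose. The counts of falls and rises were 17 and 3 without ERKO replicate 1, 5 and 3 without ERKO replicate 2, 4 and 1 without wild type replicate 1, 3 and 1 without wild type replicate 2, and 3 and 0 with array weights. Cyp3a16, a P450 of female and newborn liver, gave 473 and 176 in ERKO, against 1405 and 1215 in wild type. Both ERKO arrays were lower, but they were themselves over 2-fold apart, and the difference of -2.11 ± 0.37 (adjusted p = 0.0107) was not called with array weights (adjusted p = 0.0623) or without either wild type array. Cyp2b13, a female-pattern P450, gave 1159.8 and 995 in ERKO, against 3317 and 3187 in wild type (-1.58 ± 0.093, adjusted p = 6.42e-06). A probe set shared by the female-pattern genes Cyp3a41a, Cyp3a41b and Cyp3a44 gave 6463 and 5493 in ERKO, against 15707 and 14699 in wild type, a difference of -1.35 ± 0.12 (adjusted p = 1.36e-04), while the probe set of Cyp3a44 alone differed by -0.19 and did not pass. Cyp2a22, a P450 outside the list, gave 577 and 405 in ERKO and 2017 and 2017 in wild type (-2.03 ± 0.23, adjusted p = 6.68e-04).

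Some female-biased genes went the other way or did not pass. A1bg, a plasma glycoprotein gene, was higher in ERKO, 1986 and 1777 against 1058 and 1026 in wild type (0.84 ± 0.12, adjusted p = 0.00396), and lost its call with array weights (adjusted p = 0.0804). Fmo2, a flavin monooxygenase, rose by 0.43. Cyp2b9, one of the most female-specific P450 genes of mouse liver, differed by 0.14 and Cux2, a transcription factor of the female pattern, by 0.15, neither past the test. Cyp17a1, a steroid hydroxylase and lyase, gave 1045 and 902 in ERKO and 1588 and 1593 in wild type (-0.70 ± 0.095, adjusted p = 0.00237), and Hao2, a peroxisomal hydroxy acid oxidase, fell by 0.65 on the log2 scale.

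**Figure D3:**
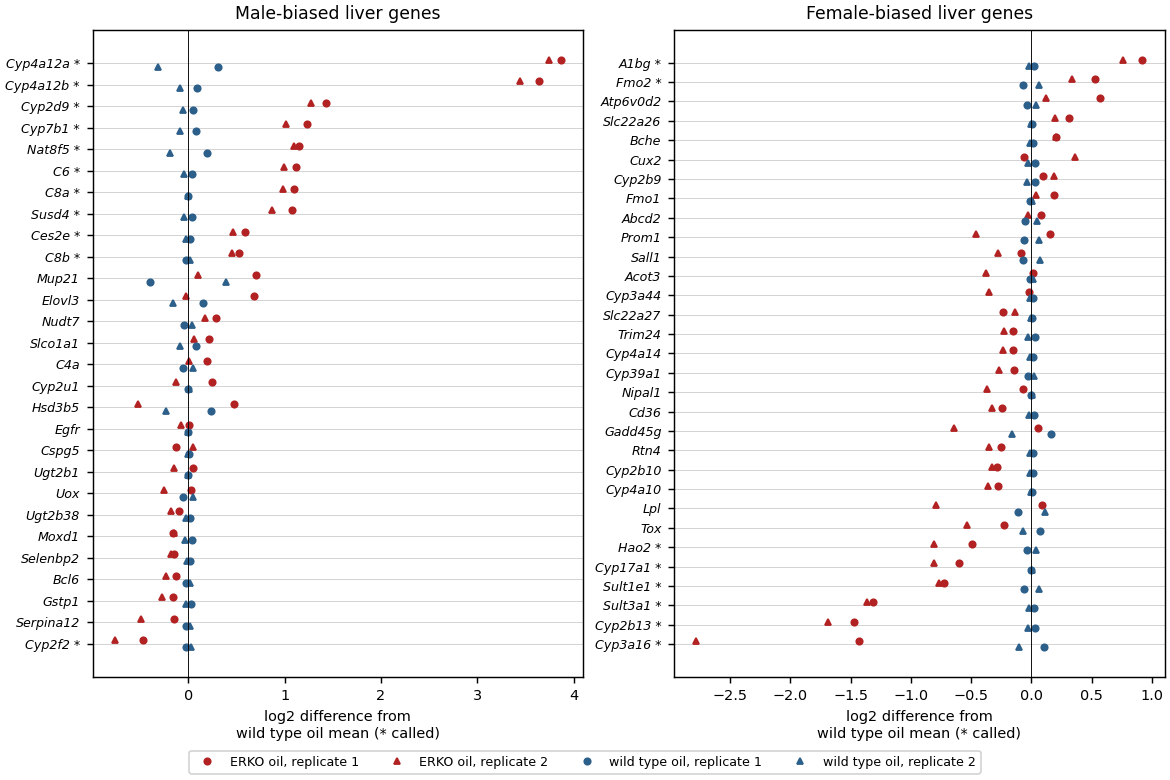
Log2 difference of each ERKO (red) and wild type (blue) oil array from the wild type oil mean for the 28 male-biased (left) and 31 female-biased (right) liver genes tested, with an asterisk at called genes. In the left panel Cyp4a12a and Cyp4a12b stand furthest to the right, 8 further called genes follow to the right of 0, while in the right panel the falls end with Cyp3a16, whose ERKO arrays lie far apart.

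Growth hormone acts in hepatocytes through its receptor, the kinase JAK2 and the transcription factor STAT5b, with SOCS2 as a feedback inhibitor and IGF-1 and its binding proteins as secreted products. Of 16 genes of this axis tested, 0 rose and 4 fell, with a median of -0.15 (1 and 8 without ERKO replicate 1, 0 and 3 without ERKO replicate 2, 0 and 2 with array weights). Igfbp2 gave 821 and 660.2 in ERKO, against 1537 and 1541 in wild type (-1.05 ± 0.1, adjusted p = 3.13e-04). Igfbp1, also known to respond to oestrogen and to insulin, gave 107 and 74.5 in ERKO, against 219.7 and 190.4 in wild type (-1.07 ± 0.13, adjusted p = 0.00126). Both binding protein genes were lower in both ERKO arrays and held with array weights. With the 4 arrays of the comparison alone neither was called (limma, adjusted p = 0.0921 for Igfbp1 and 0.0581 for Igfbp2). Stat5b gave 235 and 207 in ERKO and 371 and 345 in wild type (-0.66 ± 0.096, adjusted p = 0.00365), and Socs2 288 and 249 in ERKO and 433 and 368 in wild type (-0.55 ± 0.12, adjusted p = 0.031). The calls of Stat5b and Socs2 did not hold with array weights (adjusted p = 0.0563 and 0.28). Igf1 differed by 0.20 and the receptor gene Ghr by -0.01, neither past the test.

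Oestrogen-responsive genes of liver and other tissues moved in both directions. Of 23 tested, 3 rose and 5 fell, with a median of -0.16 (3 and 9 without ERKO replicate 1, 2 and 3 without ERKO replicate 2, 1 and 2 with array weights). Those that rose were Cyp7b1, the corticosteroid-binding globulin gene Serpina6 (0.42) and the trefoil factor Tff3 (0.53), which lost its call without ERKO replicate 2. Those that fell were Igfbp1, Sult1e1, Cyp17a1, Socs2 and the leptin receptor gene Lepr (-0.64), most of which are counted in the lists above too. The palindromic oestrogen response element, GGTCA, any 3 bases and TGACC, was sought in promoters of RefSeq (GRCm38.p6) from 250 bases before to 50 after each gene's start, on both strands. It was present in 0 of 268 promoters of genes called higher, 0 of 329 of genes called lower and 3 of 11084 of all genes tested, and these windows hold none of the distal sites at which the receptor is known to bind.

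Acute phase proteins are plasma proteins whose synthesis in hepatocytes rises with inflammatory cytokines. Of 34 tested, 11 rose and 2 fell, with a median of 0.24. With the 4 arrays of the comparison alone 4 rose and 0 fell. The counts were 14 and 4 without ERKO replicate 1, 18 and 2 without ERKO replicate 2, 9 and 1 without either wild type array, and 8 and 1 with array weights. Lcn2, which binds bacterial siderophores, gave 5499 and 5025 in ERKO livers, against 875 and 798 in wild type livers (2.63 ± 0.089, adjusted p = 1.06e-07). The serum amyloid genes Saa2 and Saa1, near copies of each other, rose together. Saa2 gave 15606 and 11502 in ERKO, against 3054 and 2629.7 in wild type (2.23 ± 0.14, adjusted p = 1.11e-05). Saa1 gave 9396 and 6959 in ERKO, against 1752 and 1744 in wild type (2.20 ± 0.13, adjusted p = 6.42e-06). In all 3 genes both ERKO arrays were over 2-fold above both wild type arrays. Serpina3n, a protease inhibitor, gave 5852 and 5451 in ERKO and 2479 and 2461 in wild type (1.19 ± 0.083, adjusted p = 2.71e-05). Orm3, Orm2, the pentraxin Apcs, the ferrireductase Steap4 and Saa3 rose by 1.07, 1.00, 0.98, 0.86 and 0.67, and Itih3 and ceruloplasmin (Cp) by 0.46 and 0.41. Hamp2, a hepcidin gene, and the chemokine Cxcl9 were the members that fell, by 0.97 and 0.61 on the log2 scale. The classical acute phase genes Hp, Crp, Fga, Fgb and Fgg did not pass the test, with differences of 0.21, -0.04, 0.30, 0.01 and 0.01.

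Transcripts of neutrophils rose with them. Of 10 neutrophil markers tested, 7 rose and 0 fell, with a median of 1.18, and 5 rose with array weights, 7 without ERKO replicate 1, 9 without ERKO replicate 2, 6 without wild type replicate 1 and 4 without wild type replicate 2. S100a8 gave 793 and 661 in ERKO, against 42.6 and 37.2 in wild type, and its partner S100a9 gave 806 and 602 in ERKO and 76.8 and 55.8 in wild type. S100a8 was in the dim range in wild type, so it was at least 13.5-fold higher (adjusted p = 1.55e-07), and S100a9 differed by 3.13 ± 0.16 (adjusted p = 1.98e-06). The granule gene Ngp gave 185 and 96.7 in ERKO, against 6.57 and 14.8 in wild type, at least 2.62-fold higher (adjusted p = 5.21e-04), and Retnlg, a resistin relative of myeloid cells, 348 and 205 in ERKO and 49 and 59 in wild type (2.02 ± 0.2, adjusted p = 3.13e-04). Of other granule protein genes, Prtn3 rose by 1.23, and Camp and Ltf, dim in wild type, rose at least 1.39-fold and 1.36-fold, whereas Ly6g, the marker used to sort mouse neutrophils, gave 0.46 and Elane -0.11, neither called. Csf3r, Mmp8, Mmp9 and Mpo, also on the list, did not pass the filter on dim values and were not tested. Ngp passed it only through ERKO oil and MOER oil, where it was high. The share of 7 in 10 was therefore partly set by the filter. With the 4 arrays of the comparison alone 4 of the 10 rose. The summed intensity of the 10 markers tested was 2800 and 2027 in ERKO, against 489 and 459 in wild type. In whole tissue more cells of a type and more RNA per cell cannot be told apart, and hepatocytes can themselves express some of these genes, S100a8 and S100a9 included. The part of infiltrating cells in the acute phase rise was not tested.

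Jchain and a light chain probe set were also higher, and no list of antibody-secreting cells was tested. Jchain, which joins the units of polymeric IgA and IgM, gave 248 and 205 in ERKO, against 24.3 and 21.7 in wild type, at least 4.2-fold higher (adjusted p = 5.12e-07). A probe set of the lambda light chain genes Iglv1, Iglc1 and Iglv2 gave 339.6 and 297 in ERKO and 145 and 127 in wild type, a difference of 1.14 ± 0.13 (adjusted p = 8.16e-04). Of 9 lymphocyte markers tested, 0 rose and 1 fell, the granzyme Gzma, dim in ERKO and at least 1.04-fold lower, and the list median was 0.12 (2 and 1 without ERKO replicate 1, 0 and 0 without ERKO replicate 2). Of 19 macrophage and Kupffer cell markers 0 were called, with a median of 0.01 and a summed intensity of 20018 and 17208 in ERKO, against 18045 and 17490 in wild type. Ifitm6, a transmembrane protein gene of the interferon-induced family, gave 316 and 313 in ERKO and 91.9 and 79 in wild type (1.71 ± 0.097, adjusted p = 6.22e-06). Of 23 interferon-induced genes 2 rose and 0 fell, Ifi27 (1.02) and Irgm1 (0.47), with a list median of -0.10 (2 and 9 without ERKO replicate 1, 4 and 0 without ERKO replicate 2).

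The unfolded protein response raises chaperones of the endoplasmic reticulum when proteins misfold there, and the amino acid response acts through ATF4 on enzymes such as asparagine synthetase. Of 29 genes of both responses tested, 10 rose and 2 fell, with a median of 0.08. With the 4 arrays of the comparison alone 1 rose and 0 fell. The counts were 10 and 2 without ERKO replicate 1, 10 and 1 without ERKO replicate 2, 5 and 1 without wild type replicate 1, 5 and 0 without wild type replicate 2, and 5 and 0 with array weights. Asns, asparagine synthetase, gave 204 and 158 in ERKO livers, against 33.2 and 33.3 in wild type livers, at least 3.36-fold higher (adjusted p = 6.16e-05). Hspa5, the chaperone BiP, gave 6553 and 5894 in ERKO, against 3965 and 3892 in wild type (0.66 ± 0.085, adjusted p = 0.00168), and the disulfide isomerase Pdia6 gave 4401 and 4205 in ERKO and 2545 and 2627 in wild type (0.73 ± 0.084, adjusted p = 7.72e-04). In both genes both ERKO arrays lay above both wild type arrays. Manf gave 1736 and 1632 in ERKO and 1019.9 and 934 in wild type (0.78 ± 0.09, adjusted p = 7.87e-04), and Creld2, Pdia4, Canx, Sdf2l1, Hsp90b1 and Dnajc3 rose by 0.77, 0.48, 0.41, 0.39, 0.39 and 0.39. Xbp1, a transcription factor of the response, and Ppp1r15a, which restores translation, were lower (-0.47 and -0.56). Of the ATF4 targets Asns, Trib3, Chac1, Psat1 and Ddit3, Asns passed, and the others gave -0.50, -0.19, 0.10 and 0.08, while Atf4 itself differed by -0.08.

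Most of the stress genes called higher hold the promoter sequence that is named for this response. The endoplasmic reticulum stress response element reads CCAAT, any 9 bases and CCACG. It was sought on both strands in the same RefSeq windows. Of all genes called higher 7 of 268 promoters held it (2.61%), and of those called lower 0 of 329. Those 7 include the 6 of the stress list given next, so the 2 counts are not separate. It was found in 6 of 9 promoters of the stress genes called higher, in 2 of 18 of the other stress genes tested (Calr and Syvn1), in 17 of 11084 genes tested (0.153%) and in 37 of 27025 RefSeq promoters (0.137%). The stretches that hold it are printed from GRCm38.p6 on the strand of the gene, with the 5 bases at each end of an element in capitals.
Canx (chr11:50325780-50325838, minus strand): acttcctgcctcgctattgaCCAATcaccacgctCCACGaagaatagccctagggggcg
Creld2 (chr15:88819500-88819558, plus strand): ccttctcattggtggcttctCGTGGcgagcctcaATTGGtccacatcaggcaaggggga
Dnajc3 (chr14:118937807-118937865, plus strand): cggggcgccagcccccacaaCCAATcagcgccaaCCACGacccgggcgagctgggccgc
Hsp90b1 (chr10:86705513-86705676, minus strand): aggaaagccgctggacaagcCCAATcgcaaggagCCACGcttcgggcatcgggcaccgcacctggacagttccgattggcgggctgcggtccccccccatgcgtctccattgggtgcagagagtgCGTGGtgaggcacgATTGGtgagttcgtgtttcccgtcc
Hspa5 (chr2:34772005-34772063, plus strand): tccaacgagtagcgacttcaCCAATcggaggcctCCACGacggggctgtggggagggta
Pdia6 (chr12:17266471-17266529, plus strand): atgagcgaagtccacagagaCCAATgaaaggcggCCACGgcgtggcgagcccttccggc
The element lay 65 bases before the start in Hspa5 and 145 in Canx, and Hsp90b1 holds a pair of them, the nearer 107 bases before its start. In Creld2 and in 1 of the pair in Hsp90b1 it runs on the opposite strand, so the capitals there read CGTGG and ATTGG. The list was drawn from genes already known for this response, so the share that holds the element is not independent of the choice of members. Binding of a factor to these letters was not measured.

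Circadian clock genes differed in a pattern of single genes. The transcription factor BMAL1, encoded by Arntl, drives genes of the evening phase, and the REV-ERB factors, encoded by Nr1d1 and Nr1d2, repress Arntl. Of 20 clock genes tested, 6 rose and 2 fell, with a median of 0.05 (3 and 1 without either wild type array, 5 and 3 without ERKO replicate 1, 5 and 2 without ERKO replicate 2, 1 and 1 with array weights). Ciart, a repressor of the clock, gave 527 and 354 in ERKO, against 103 and 63.1 in wild type (2.21 ± 0.31, adjusted p = 0.00271), and did not hold with array weights (adjusted p = 0.0885). Noct, which encodes the rhythmic protein nocturnin, gave 539 and 465 in ERKO, against 129.6 and 134 in wild type (1.81 ± 0.1, adjusted p = 6.42e-06). Arntl gave 69.5 and 68.8 in ERKO and 171 and 169 in wild type (-1.13 ± 0.084, adjusted p = 4.42e-05). The 2 arrays of each group lay within a few units of each other for Noct in wild type and for Arntl in both groups. Wee1, a kinase under clock control, rose by 1.13, Usp2 by 0.71, Per3 by 0.58 and Per2 by 0.41, and Nr1d1 fell by 0.48 on the log2 scale. Dbp, Per1, Clock and Nr1d2 gave 0.24, 0.09, -0.19 and 0.02 and did not pass. With the 4 arrays of the comparison alone 3 clock genes rose and 1 fell. The sources used here do not give the hour at which livers were taken, so genotype and hour of collection cannot be told apart for these genes.

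**Figure D4:**
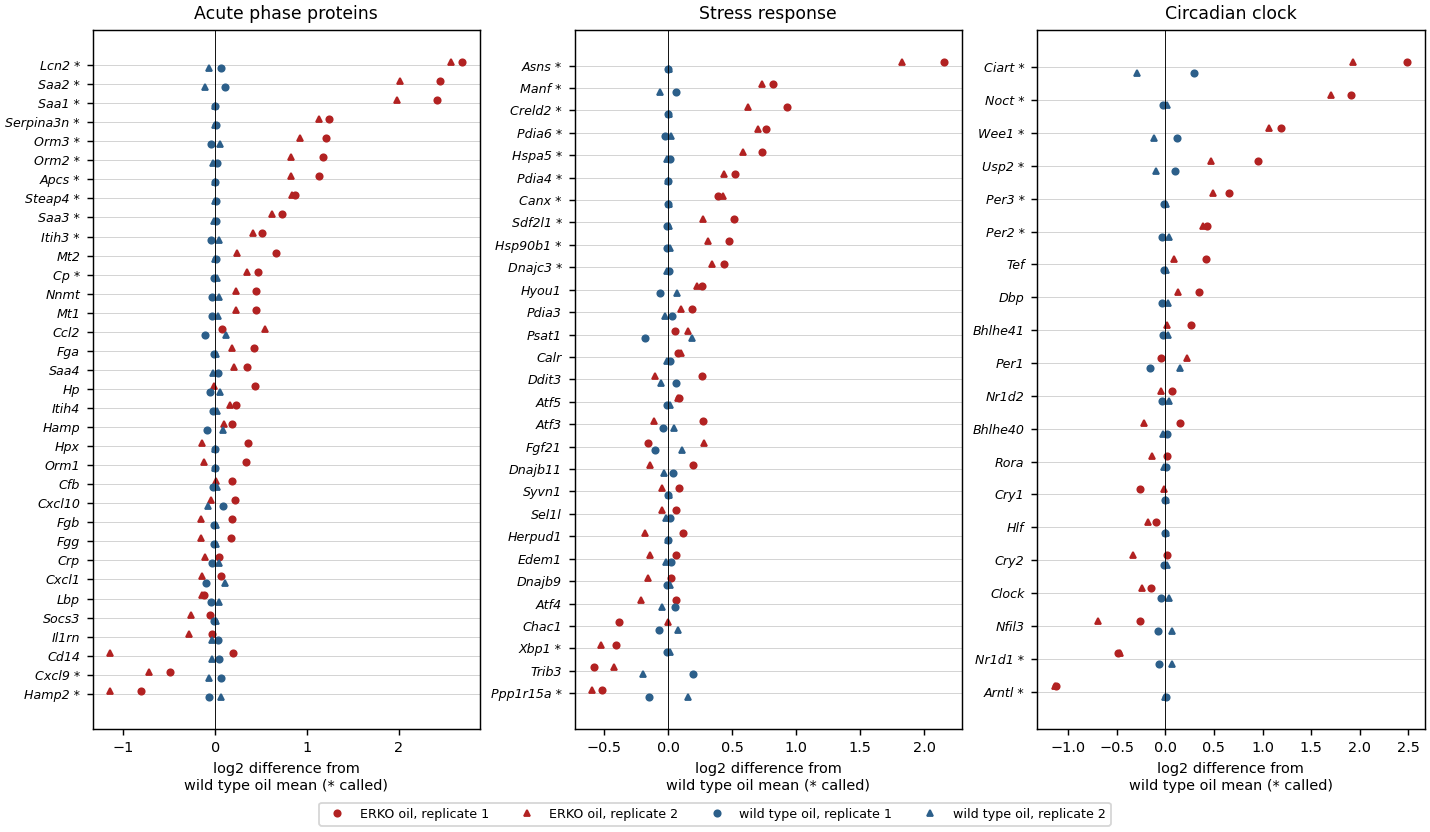
Log2 difference of each ERKO (red) and wild type (blue) oil array from the wild type oil mean for the 34 acute phase genes (left), the 29 stress response genes (middle) and the 20 clock genes (right), with an asterisk at called genes. Lcn2, Asns and Ciart head the panels, the falls of Hamp2 and Arntl close the outer ones, and ERKO replicate 2 (triangles) lies left of replicate 1 (circles) for most acute phase genes.

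The study's title asks about liver lipid, and few genes of lipid synthesis passed the test for ERKO against wild type under oil. Srebf1, the gene of the lipogenic factor SREBP-1, gave 503 and 406 in ERKO livers, against 415 and 408 in wild type livers (0.13 ± 0.12, adjusted p = 0.534). Fasn, fatty acid synthase, gave 651 and 558 in ERKO and 541 and 531 in wild type (0.16 ± 0.099, adjusted p = 0.343). Neither gene passed the test. Acaca, acetyl-CoA carboxylase, differed by 0.17 ± 0.093 (adjusted p = 0.302) and Scd1, the desaturase, by -0.18 ± 0.095 (adjusted p = 0.292). Of 23 fatty acid synthesis genes 2 rose and 2 fell, with a median of 0.10 (2 and 7 without ERKO replicate 1, 3 and 2 without ERKO replicate 2, 1 and 2 with array weights). Thrsp, a nuclear protein gene induced with lipogenesis, gave 5722 and 4902 in ERKO and 2563 and 2607 in wild type (1.03 ± 0.097, adjusted p = 2.28e-04). The elongase Elovl6 rose by 0.56, while the pyruvate kinase gene Pklr gave 762 and 674 in ERKO and 1121 and 1157 in wild type (-0.66 ± 0.09, adjusted p = 0.00246) and malic enzyme, Me1, 1478 and 1554 in ERKO and 2236 and 2272 in wild type (-0.57 ± 0.079, adjusted p = 0.00284). The carbohydrate-responsive factor gene Mlxipl differed by -0.14.

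Cholesterol synthesis genes had a median of 0.18, and 2 of 20 rose and 0 fell, Fdft1, squalene synthase (0.46), and Hsd17b7 (0.36). With array weights 0 were called, and 3 rose and 1 fell without ERKO replicate 1, 3 and 0 without ERKO replicate 2. Bile acid and sterol disposal genes gave 2 rises and 3 falls of 30 (3 and 10 without ERKO replicate 1, 2 and 1 without ERKO replicate 2, 2 and 0 without either wild type array or with array weights). Cyp7a1, whose enzyme limits the rate of bile acid synthesis, gave 4177 and 3922 in ERKO, against 2623 and 2554 in wild type (0.64 ± 0.087, adjusted p = 0.00231). Cyp8b1, which makes cholic acid, went the other way, 418 and 354 in ERKO against 582 and 606 in wild type (-0.61 ± 0.1, adjusted p = 0.00887). Both ERKO arrays stood apart from both wild type arrays in each gene, and the call of Cyp7a1 held with array weights (adjusted p = 0.0385) while that of Cyp8b1 did not (adjusted p = 0.0883). The sterol transporter Abcg8 (-0.42) and the HDL receptor Scarb1 (-0.42) were called lower but not without ERKO replicate 2.

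Pctp, which carries phosphatidylcholine between membranes, fell by more than the called genes of the lipid lists below, 284 and 251 in ERKO against 1233 and 1225 in wild type (-2.14 ± 0.09, adjusted p = 5.12e-07). Fatty acid oxidation genes and targets of PPAR-alpha gave 0 rises and 4 falls of 31, with a median of -0.20. Acot1, an acyl-CoA thioesterase, gave 118 and 72.4 in ERKO, against 274 and 276 in wild type (-1.42 ± 0.16, adjusted p = 7.74e-04), and the peroxisomal thiolase Acaa1b gave 2308 and 1861 in ERKO and 3463 and 3379 in wild type (-0.72 ± 0.11, adjusted p = 0.00589). Those 2 were called with array weights too, whereas Vnn1 (-0.37) and Cpt1a, the carnitine palmitoyltransferase (-0.36), were not. The count of falls depended on the ERKO array, 16 without replicate 1 and 2 without replicate 2. In triglyceride synthesis and lipid droplets 1 of 24 genes rose, Cideb (0.50), and 4 fell, Pnpla2 (-0.64), Mgll (-0.53), Agpat3 (-0.46) and Fitm2 (-0.39). Rises and falls numbered 5 and 7 without ERKO replicate 1, 3 and 0 without ERKO replicate 2, and 0 and 0 with array weights. Of 23 lipoprotein genes 1 rose, Angptl8 (0.49), and 2 fell, Lcat (-0.39) and Scarb1, with 2 rises and 13 falls without ERKO replicate 1 and 3 and 0 without ERKO replicate 2. Without either wild type array 0 genes were called in the cholesterol, triglyceride and lipoprotein lists.

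Dio1, the deiodinase that activates thyroid hormone in liver, gave 680.0 and 519.8 in ERKO, against 1699 and 1606 in wild type (-1.45 ± 0.13, adjusted p = 1.27e-04), and both ERKO arrays were lower. Alas1, the first enzyme of haem synthesis in liver, gave 2498 and 2388 in ERKO and 1144 and 1238 in wild type (1.03 ± 0.088, adjusted p = 1.14e-04). Both groups were separate in these genes too. Pcp4l1 gave 72.9 and 55.3 in ERKO, against 196 and 206 in wild type (-1.45 ± 0.14, adjusted p = 2.30e-04). The defensin gene Defb1 gave 56.2 and 37.4 in ERKO, against 152 and 143 in wild type (-1.39 ± 0.16, adjusted p = 7.65e-04). Adgb, the gene of androglobin, was at 25.7 and 29.5 in ERKO, in the dim range, against 164 and 129 in wild type, at least 2.62-fold lower (adjusted p = 6.42e-06).

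Other metabolic lists moved by single genes. Of 20 gluconeogenesis and insulin-regulated genes 2 rose, the glycogen genes Ppp1r3b (0.59) and Gys2 (0.55), and 2 fell, Igfbp1 and pyruvate carboxylase, Pcx (-0.39) (2 and 6 without ERKO replicate 1, 3 and 2 without ERKO replicate 2, 0 and 1 with array weights). Of 24 steroid-converting enzymes 1 rose and 3 fell, among them Hsd17b6, a hydroxysteroid dehydrogenase (-0.50). These counts were 1 and 10 without ERKO replicate 1, 0 and 3 without ERKO replicate 2 and 0 and 1 with array weights. Of 36 drug metabolism genes 1 rose, Ces2a (0.63), and 3 fell, Cyp1a2 (-0.59), Gstt3 (-0.53) and Cyp2f2, with 14 falls without ERKO replicate 1 and 2 without ERKO replicate 2. Of 25 coagulation and plasma carrier genes 4 rose and 0 fell, the kininogen Kng2 (0.52), Serpina6, Pros1 (0.38) and Serpind1 (0.37), and 0 were called with array weights or without either wild type array. Without ERKO replicate 1 coagulation and carrier genes gave 4 rises and 10 falls, and without ERKO replicate 2 they gave 6 and 0. Of 28 oxidative phosphorylation genes 0 rose and 2 fell, Uqcrc1 (-0.71) and Cyc1 (-0.43). Without ERKO replicate 1 there were 1 rise and 11 falls, without ERKO replicate 2 there were 1 and 1, and Cyc1 was not called without ERKO replicate 2 or with array weights. Of 24 cell cycle genes 0 were called, with a median of 0.01 (1 fell without ERKO replicate 1, 1 rose without ERKO replicate 2). Of 19 immediate early and heat shock genes, which respond to handling, 1 rose, Dnaja1 (0.43), and 3 fell, Dusp1 (-0.89), Ier2 (-0.68) and Zfp36 (-0.44), with 2 rises and 6 falls without ERKO replicate 1, 1 and 2 without ERKO replicate 2 and 0 and 1 with array weights.

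Markers of liver zones and of other cells were tested as well. Of 10 periportal genes 0 rose and 4 fell, Gldc (-0.70), Cyp2f2, Aldh1b1 (-0.48) and Hal (-0.47), and of 14 pericentral genes 2 rose, Oat (0.67) and Slc1a2 (0.45), and 1 fell, Cyp1a2. The periportal falls numbered 4 without ERKO replicate 1, 3 without ERKO replicate 2, where Aldh1b1 was not called, 0 without either wild type array and 2 with array weights. The pericentral rises and falls numbered 3 and 5 without ERKO replicate 1, 2 and 1 without ERKO replicate 2 and 1 and 0 with array weights. Of 14 endothelial genes 0 rose and 4 fell, with 9 falls without ERKO replicate 1, 2 without ERKO replicate 2 and 0 without either wild type array. Lyve1, a hyaluronan receptor of liver sinusoids, gave 132 and 56.3 in ERKO, against 247 and 229 in wild type (-1.29 ± 0.25, adjusted p = 0.0175), and ERKO replicate 2 was well below replicate 1. Its call was lost without either wild type array. Eng, Oit3 and Kdr fell by 0.67, 0.48 and 0.43 on the log2 scale. Among red cell precursor markers 2 of 5 rose, the transferrin receptor Tfrc, 1289 and 1197 in ERKO against 540.2 and 555 in wild type (1.16 ± 0.094, adjusted p = 7.61e-05), which hepatocytes express too, and Alas2 (0.57). Of 7 adipocyte markers 1 fell, Fabp4 (-0.95), and 0 of 14 stellate, 5 bile duct, 15 pancreatic acinar and 21 squamous markers were called. Among muscle, gut and airway markers 1 each passed, Neb (0.50), Tff3 and Cyp2f2. Without ERKO replicate 1, 7 stellate and 7 macrophage markers were called lower and 5 acinar markers higher. Acinar transcripts summed to low levels in both groups, with a total over 15 markers of 573 and 704 in ERKO, against 568 and 676 in wild type, and the summed muscle markers gave 1102 and 1345 in ERKO, against 1033 and 1041 in wild type.

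The same genotype difference was measured in another 4 arrays, ERKO and wild type given PPT, which share no array with the oil comparison. There 6133 probe sets were called (32.1%), with 14.6% of genes higher and 19.7% lower, and the difference between the genotype differences under PPT and oil was called for 4266 (22.3%). The ERKO PPT arrays also held transcripts of muscle (19 of 20 muscle markers were higher than in wild type PPT, Acta1 1780 and 1847 in ERKO PPT, against 131 and 124 in wild type PPT) and of squamous epithelium (Krt13 2447 and 2288 in ERKO PPT, against 38.8 and 36.8 in wild type PPT). Sult2a3 was lower in ERKO under PPT as well, 159 and 225 in ERKO PPT against 11330.3 and 8975 in wild type PPT, and so was Esr1 (-0.97). Cyp4a12a gave 4589 and 4715 in ERKO PPT, against 10.7 and 5.96 in wild type PPT, where it was dim, so it was at least 83.3-fold higher, and 18 of the 28 male-biased genes were higher and 5 lower. S100a8, S100a9 and Lcn2 were higher in ERKO under PPT too, by 1.52, 1.34 and 1.20, and Jchain, dim in wild type PPT, was at least 2.3-fold higher. Dio1 and Arntl were higher in ERKO under PPT (1.66 and 0.75) and lower under oil, and Noct was lower under PPT (-0.78). Of the 29 stress response genes 0 were higher and 23 lower in ERKO under PPT. Of the 20 cholesterol synthesis genes 18 were higher under PPT.

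MOER livers were also measured under oil. Since the MOER and ERKO differences from wild type share the wild type arrays, their values are set side by side and the test is of ERKO minus MOER. The MOER oil arrays carried pancreatic transcripts (15 of 15 acinar markers higher than in wild type, Cpb1 13211 and 12058 in MOER oil against 17.2 and 17.6 in wild type oil). In MOER minus wild type 1082 probe sets were called (5.66%), with 2.14% of genes higher and 3.64% lower, and in ERKO minus MOER 392 (2.05%). Sult2a3 differed from wild type by -7.96 in ERKO and by -7.42 in MOER, and ERKO minus MOER was -0.54 (adjusted p = 0.149). Cyp4a12a gave 1434 and 1313 and Cyp4a12b 1189 and 952 in MOER oil, with ERKO minus MOER at -1.42 (adjusted p = 0.00181) and -1.34 (adjusted p = 2.00e-04). In MOER minus wild type, acute phase genes gave 7 rises and 1 fall of 34, and neutrophil markers 6 and 0 of 10. Stress response genes gave 8 and 1 of 29 there, and male-biased genes 11 and 2 of 28. Lcn2, Saa1 and S100a9 were higher in MOER than in wild type by 1.46, 1.65 and 2.15. Lcn2 and Serpina3n were higher in ERKO than in MOER by 1.17 (adjusted p = 5.68e-05) and 1.12 (adjusted p = 4.62e-05). Pctp was lower in ERKO than in MOER by 1.06 on the log2 scale (adjusted p = 1.31e-04). Arntl gave -1.43 in ERKO minus MOER (adjusted p = 5.29e-06) and 0.30 in MOER minus wild type. Cyp17a1 and Csad, which makes hypotaurine, were above MOER, by 2.07 (adjusted p = 5.30e-07) and 1.63 (adjusted p = 1.34e-04), and Alas1 by 1.05 (adjusted p = 1.23e-04).

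**Figure D5:**
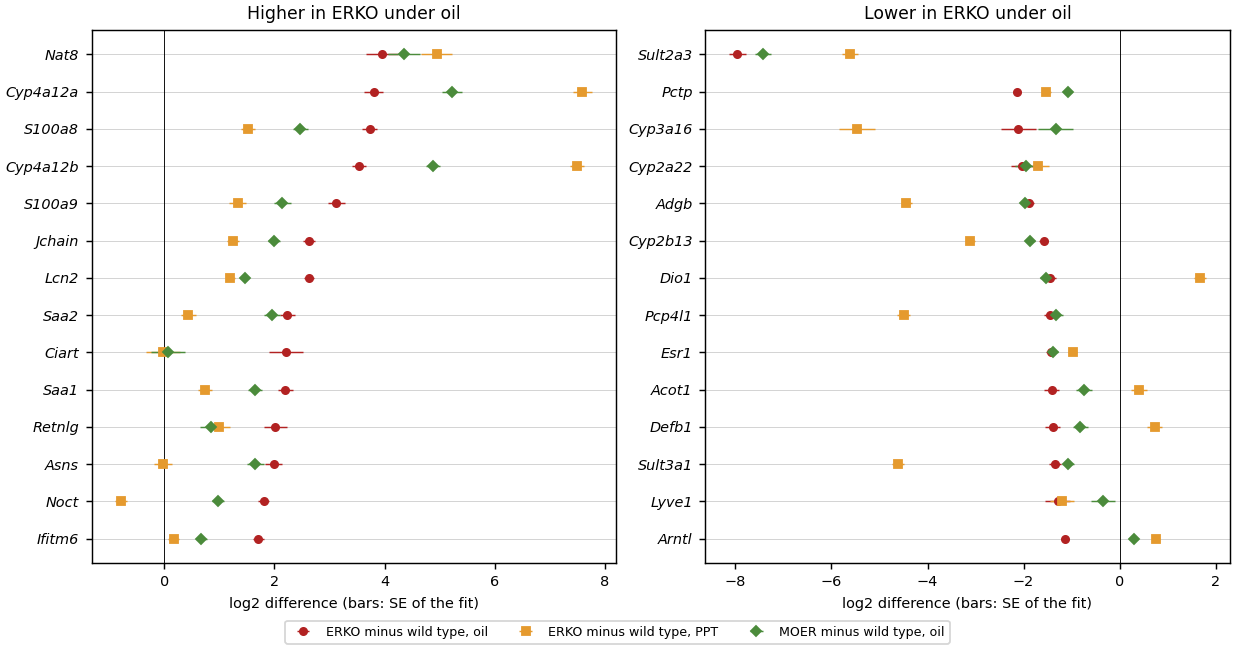
Log2 differences with standard errors of the fit for the 14 genes that rose most (left) and the 14 that fell most (right) in ERKO under oil: ERKO minus wild type under oil (red circles), ERKO minus wild type under PPT (orange squares) and MOER minus wild type under oil (green diamonds). The circles and diamonds share the wild type oil arrays, the genes are those of the plot of single arrays, and a value against a group in which a gene was dim, such as Cyp4a12a, Cyp4a12b and Jchain in wild type, is a fitted one that gives no size and no bound. The squares of Cyp4a12a and Cyp4a12b lie furthest right, and those of Noct, Dio1, Arntl, Acot1 and Defb1 lie on the other side of 0 from their circles. The squares of Asns and Ciart lie just past 0, at -0.02 for both.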

How the data were processed

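Per the labels, whole liver RNA was pooled from 3 animals for each array and the study was repeated a second time, and the authors called changes with Cyber-T at 99.99% confidence and at least 2-fold. The deposited values are linear intensities per probe set. How probes were summarised and normalized was not given in the sources used here. Intensities were taken as log2(value + 16), those over the 40th percentile on 2 or more of 12 arrays were kept, and 6 group means were fitted with limma 3.58.1 (R 4.3.3), leaving 6 residual degrees of freedom. P-values were adjusted by Benjamini-Hochberg over 19119 probe sets. A call is an adjusted p under 0.05. The methods' threshold on a Cyber-T-style test called 108 probe sets (0.565%). Of 28815 probe sets 21780 have 1 symbol, 1605 several and 5430 none. A gene is its brightest probe set with 1 symbol. A group with both arrays under their 40th percentile is called dim, and a fold against it is a lower bound. Named are Esr1, the 14 largest rises and falls called with and without each ERKO array (Gm and Rik symbols left out), up to 4 called members of each list by p, lipid genes of the study's question, the 8 widest gaps between ERKO arrays, and the 8 smallest p of 2 further comparisons. The 14 largest rises and falls were also required to have both arrays of 1 genotype above both of the other. Further members were chosen after their values were seen. Members and lists were chosen with earlier results of these data known. The fit was tested on data simulated with the same spread in all 6 groups, so the wider gap of the ERKO oil pair was not simulated. Alternatives were array weights, other pseudocounts, filters and normalizations, a replicate block and leaving out each array. Leaving out 1 array leaves its group with no spread of its own.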

Additional observations from a re-analysis of the deposited data

Results flagged for a closer look

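Among the genes named for the size of their change under oil or for the smallest p of the test of the difference between the genotype differences under PPT and oil, 32 were called in that test by limma (Benjamini-Hochberg adjusted over all probe sets). Over all genes that test called 3309 of 13987 (23.7%). The genes of smallest p were chosen by this test itself, and the others by the oil difference that enters it. The choice therefore favoured these 32 calls, and their number is not to be compared with that share. The values are ERKO minus wild type under PPT minus ERKO minus wild type under oil, on the log2 scale. Asns, Jchain, S100a8, Cyp3a16, Adgb, Cyp4a12a, Cyp4a12b, Acot1, Defb1, Cyp7a1, Cyp8b1, Xirp2 and Fabp3 were dim in 1 or more of the 4 groups, so their values are fitted ones and give neither a size nor a bound. Among genes that rose in ERKO under oil, the fitted value was negative for Ifitm6 (-1.54), Asns (-2.01), Noct (-2.59), Retnlg (-1.02), Jchain (-1.39), Saa1 (-1.45), Ciart (-2.22), Saa2 (-1.80), Lcn2 (-1.43), S100a9 (-1.79) and S100a8 (-2.21). Among genes that fell under oil, it was also negative for Cyp3a16 (-3.36), Cyp2b13 (-1.53), Pcp4l1 (-3.05), Adgb (-2.55) and Sult3a1 (-3.27). It was positive for Cyp4a12b (3.96), Cyp4a12a (3.79), Sult2a3 (2.34), Pctp (0.61), Dio1 (3.11), Acot1 (1.82), Defb1 (2.12), Arntl (1.88) and Esr1 (0.46), of which Cyp4a12a and Cyp4a12b had risen under oil and the others had fallen. The genes named for the smallest p of this test gave Cyp17a1 (-3.14), A1bg (-6.07), Cyp7a1 (5.01), Cyp8b1 (4.55), Rnf125 (3.59), Xirp2 (5.66) and Fabp3 (4.80). The ERKO PPT arrays carried muscle and squamous transcripts, and their part in these values was not tested, while Xirp2 and Fabp3 are themselves genes of muscle.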

How the results depend on the processing

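Of 428 probe sets called higher in ERKO, the count was 115 with array weights, 899 after quantile normalization and 52 with the 4 arrays alone, and leaving out each array in turn gave 149 to 1731. Of 529 called lower, it was 82 with array weights, 1027 with an intensity trend, 305 with a filter at the 20th and 892 at the 60th percentile, 245 with no filter, 858 with log2(value + 64) and 28 with the 4 arrays alone, and 77 to 4598 leaving out each array. The counts of higher and lower were 1731 and 4598 without ERKO replicate 1, 591 and 236 without ERKO replicate 2, 155 and 77 without wild type replicate 1 and 149 and 81 without wild type replicate 2. At 2-fold or more, 69 higher and 40 lower became 33 and 25 with log2(value + 64), and 68 to 100 and 30 to 155 leaving out each array. MOER minus wild type under oil gave 3980 with array weights, 1716 after median centring and 696 with no filter (249 to 3332 leaving out each array), and ERKO minus MOER 86, 767 with a trend, 236 with no filter and 813 after quantile normalization (123 to 2151). ERKO against wild type under PPT gave 4007 to 7921 and the difference between PPT and oil 2873 to 6735 leaving out each array. The replicate block gave 414 higher and 517 lower; the same-numbered oil arrays correlated in their deviations at 0.276 (ERKO and wild type), 0.354 (MOER and wild type) and 0.377 (ERKO and MOER), and the other pairs of groups at -0.147 to 0.127. The labels tie no number to the repeat of the study, and with 2 numbers a pairing was not established. The block lost the calls of Aldh1b1, Kdr, Hsd17b7, Fitm2, Cpt1a, Vnn1, Pcx, Serpind1 and Fabp3. Of the 102 named genes that were called, 50 lost the call with array weights, 67 with the 4 arrays alone, 53 without wild type replicate 1, 50 without wild type replicate 2, 22 without ERKO replicate 2 and 9 with the replicate block, and 0 reversed in any alternative. The 28 genes named for size had been chosen as called without each ERKO array, and of 644 comparisons for them 635 kept direction and call, 9 lost the call (Ciart, Cyp3a16, Acot1 and Lyve1) and 0 reversed. The causes were not tested. With 2 arrays a group, 6 residual degrees of freedom come mostly from the other groups, and dim genes have only bounds.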
